A study of Mus musculus with 8 samples.

Results

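The SOX proteins that act in the neural lineage were followed in mouse embryonic stem cells (mESCs) that lack PCGF5 and in wild-type (WT) cells. Their genes were taken as the rows whose gene symbol is Sox1, Sox2, Sox3, Sox4, Sox5, Sox6, Sox8, Sox9, Sox11 or Sox21, and each of these 10 genes had 1 row among the 24849 rows of the deposited tables. All samples came from the MPI-II mESC line of the 129S2/SvPas background, and the genotype was either WT or Pcgf5-/-. Day 0 cells were grown on feeder cells with serum, leukemia inhibitory factor and the 2i inhibitors CHIR99021 and PD0325901, and day 6 cells had been cultured for 6 days in N2B27, a defined medium without serum that favours neural differentiation. The Pcgf5-/- cells were made with a TALEN pair against exon 2 and grown from picked colonies, so they represent clonally derived cells. PolyA+ RNA was sequenced from 2 samples in each of the 4 conditions (WT day 0, Pcgf5-/- day 0, WT day 6 and Pcgf5-/- day 6), called #1 and #2 here, and levels are given as FPKM, the fragments of a gene scaled to its exon length and to the mapped fragments of the library.

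SOX proteins bind DNA through an HMG box and usually act next to a partner, such as OCT4 in mESCs or a class III POU factor or PAX6 in neural progenitors. The SOXB1 proteins SOX1, SOX2 and SOX3 hold neural progenitors in an undifferentiated state, and SOX2 also belongs to the core pluripotency factors. SOX21, of the SOXB2 group, counters SOXB1 activity, while the SOXC proteins SOX4 and SOX11 act in progenitors leaving the cell cycle and in young neurons. The SOXD proteins SOX5 and SOX6, which lack an activation domain of their own, and the SOXE proteins SOX8 and SOX9 are best known from neural crest, glia and cartilage.

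Upstream sequence is shown for 4 members, namely Sox2, whose change over 6 days was opposite to that of the others in WT, and Sox1, Sox11 and Sox21, which were well expressed at day 6. Each is the 250 bases before the annotated start, 5′ to 3′ on the strand of the gene, from the RefSeq promoters of build GRCm38.p6, in which 8 of the 10 members had an entry and Sox3 and Sox9 had none. The windows lie at chr3:34649745-34649994 for Sox2 and chr8:12395269-12395518 for Sox1, both on the plus strand, and at chr12:27342719-27342968 for Sox11 and chr14:118237031-118237280 for Sox21, both on the minus strand. Capitals mark a GC box (GGGCGG or its reverse complement CCGCCC) or a CCAAT box (CCAAT or ATTGG).
Sox2: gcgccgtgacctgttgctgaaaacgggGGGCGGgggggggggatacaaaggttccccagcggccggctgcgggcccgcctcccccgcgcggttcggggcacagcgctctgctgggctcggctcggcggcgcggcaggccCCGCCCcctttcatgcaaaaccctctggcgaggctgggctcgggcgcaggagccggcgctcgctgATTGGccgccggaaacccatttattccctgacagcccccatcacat
Sox1: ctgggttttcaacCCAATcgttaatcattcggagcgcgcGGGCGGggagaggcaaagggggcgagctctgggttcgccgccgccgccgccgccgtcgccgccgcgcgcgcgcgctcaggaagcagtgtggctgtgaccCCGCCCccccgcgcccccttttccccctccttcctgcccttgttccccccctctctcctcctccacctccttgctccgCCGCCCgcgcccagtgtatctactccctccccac
Sox11: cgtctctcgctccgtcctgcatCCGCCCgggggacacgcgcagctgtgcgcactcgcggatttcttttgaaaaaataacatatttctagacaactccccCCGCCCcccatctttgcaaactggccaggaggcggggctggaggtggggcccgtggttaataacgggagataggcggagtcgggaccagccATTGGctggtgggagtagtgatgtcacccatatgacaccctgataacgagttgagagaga
Sox21: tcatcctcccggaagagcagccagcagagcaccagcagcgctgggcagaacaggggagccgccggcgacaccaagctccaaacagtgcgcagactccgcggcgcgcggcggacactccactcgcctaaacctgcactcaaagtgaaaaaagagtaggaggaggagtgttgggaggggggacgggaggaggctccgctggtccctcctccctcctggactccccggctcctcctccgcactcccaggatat

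The 4 windows were rich in CpG, with 27 for Sox2, 29 for Sox1, 17 for Sox11 and 17 for Sox21 against a median of 6 over the 32851 windows of the same length in the table. Sox2 and Sox11 each held 2 GC boxes and 1 CCAAT box, Sox1 held 3 and 1, and Sox21 held neither. A GC box was present in 32.7% and a CCAAT box in 33.8% of all windows. The core SOX site AACAAT (or ATTGTT), found in 9.42% of all windows, the octamer ATGCAAAT (or ATTTGCAT), found in 1.6%, and the TATA box TATAAA (or TTTATA), found in 12.4%, had no match in these 4 windows. Over the 13 windows of the 8 members, a GC box stood in 5, a CCAAT box in 6, a core SOX site in 1 of Sox6, a TATA box in 1 of Sox6 and an octamer in 0. These are matches of letters and do not mark bound sites.

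The members lie apart in the genome (build NCBIM37, mm9, the build of the files). Sox1 lies at chr8:12395519-12399555, Sox2 at chr3:34548927-34551382, Sox3 at chrX:58144541-58146605, Sox4 at chr13:29042599-29045551 and Sox11 at chr12:28019133-28027583. Sox21 lies at chr14:118632456-118636252, Sox8 at chr17:25702838-25707631 and Sox9 at chr11:112643524-112649071. The SOXD genes span far more sequence, with Sox5 at chr6:143776945-144158088 and Sox6 at chr7:122614386-123182258. The longest annotated transcripts of Sox2, Sox3, Sox4, Sox11 and Sox21 have 1 exon, those of Sox8 and Sox9 have 3, and those of Sox5 and Sox6 have 15 and 17. Sox2 lies wholly inside the locus of Sox2ot, a long non-coding RNA gene on the same strand, so reads of the 2 rows may not be fully separable. The longest run of identical bases in transcripts of 2 members, over 36 pairs of 9 members, was 48 bases for Sox4 and Sox11, then 38 for Sox2 and Sox21 and 32 for Sox2 and Sox3.

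Pcgf5 itself, which checks the genotype labels, had mean levels at day 6 of 7.11 FPKM with and 0.563 FPKM without the intact gene. At day 0 it had 5.18 and 3.63 FPKM in WT and 1.28 and 1.84 FPKM in Pcgf5-/- cells. This day 0 difference, at -1.07 on the log2(FPKM + 1) scale, did not pass (limma adjusted p = 0.105). The Pcgf5 samples did not overlap between the genotypes on either day, but neither did those of 47.9% of tested genes at day 0. Relative depth, read from the steps between low FPKM values, ranged from 0.993 to 1.29 times that of WT day 0 #1. Of 12 neural progenitor genes, all were above 1 FPKM in both WT samples at day 6, against 4 or 6 at day 0. Among 13 fibroblast genes, a feeder signature, the summed level was 911 FPKM in Pcgf5-/- day 0 #2 and 337 to 485 FPKM in the other day 0 samples, then 73.4 to 177 FPKM at day 6. Of 8 primitive endoderm genes, the summed level was 366 FPKM in WT day 6 #1 and 94.2 to 152 FPKM in the other day 6 samples. The part of these cells in the SOX levels was not tested, and in bulk RNA fewer cells of a type cannot be told apart from less RNA per cell.

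Before differentiation Sox2 was by far the most abundant member. At day 0 it had 175 and 159 FPKM in the WT samples and 158 and 156 FPKM in the Pcgf5-/- samples, above every other member in each sample, with both Pcgf5-/- samples just below both WT samples. Sox4 followed with 6.94 and 2.22 FPKM in WT and 6.92 and 14.7 FPKM in Pcgf5-/- cells, and it was highest in the sample with the most fibroblast RNA. Sox21 had 4.86 and 2.91 FPKM in WT and 1.89 and 1.66 FPKM in Pcgf5-/- cells. Sox1, the earliest SOXB1 gene particular to neural cells, had 0.295 to 0.729 FPKM over the 4 samples, and the genotypes overlapped. The remaining members were low: Sox3 had 0.567 to 2.56 FPKM, Sox11 0.424 to 1.70 FPKM and Sox9 0.442 to 2.00 FPKM, while Sox5, Sox6 and Sox8 had at most 0.266 FPKM, with Sox5 listed at 0 in 1 WT sample. In WT the order behind Sox2 was Sox4, Sox21, Sox3, Sox9, Sox11 and Sox1, but Sox4 and Sox21 overlapped, as did each neighbouring pair from Sox3 to Sox1.

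No member differed between the genotypes at day 0 (0 of 10, limma with Benjamini-Hochberg adjustment, against 0.333% of the 13214 genes tested), although 4 had an unadjusted p under 0.05. Sox3 stood at 0.76 on the log2(FPKM + 1) scale, Pcgf5-/- over WT (95% interval 0.28 to 1.24, adjusted p = 0.115) and Sox21 stood at -0.79 (-1.27 to -0.31, adjusted p = 0.106). Sox4 stood at 1.14 (0.14 to 2.14, adjusted p = 0.229) and Sox11 at 0.54 (0.05 to 1.02, adjusted p = 0.242). These 4 intervals leave room for differences of 1 log2 unit or more. For Sox2 the interval was narrow, at -0.08 (-0.33 to 0.16, adjusted p = 0.745). The samples of the genotypes did not overlap for 5 members, against 47.9% of all tested genes.

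**Figure D1:**
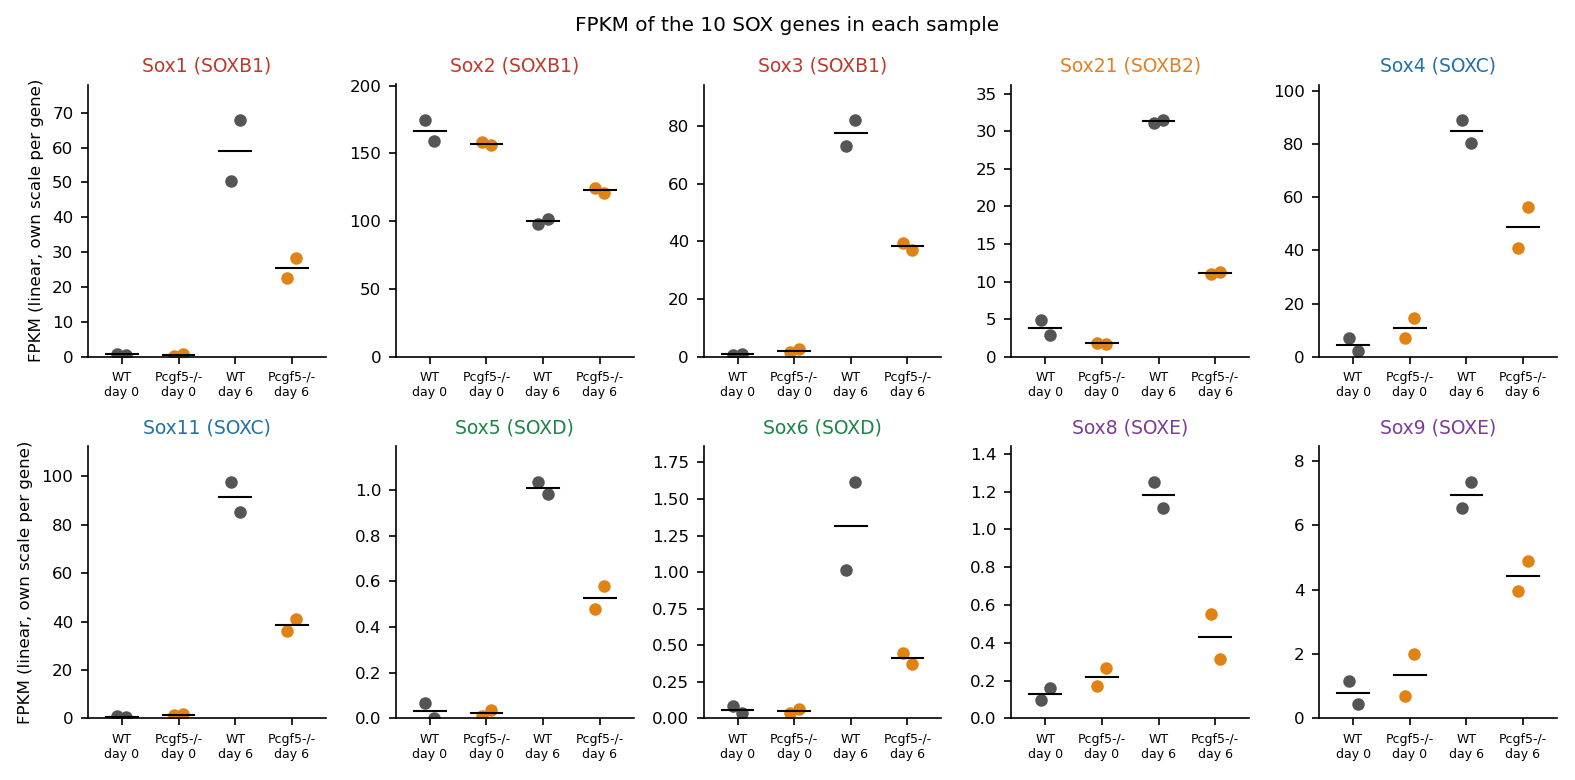
FPKM of the 10 SOX genes in every sample, with 2 points per condition (grey WT, orange Pcgf5-/-) and a line at their mean. Each panel has its own linear axis from 0. Sox2 is lower at day 6 than at day 0, while the points of the other 9 genes are higher at day 6 than at day 0 in WT and lie lower in Pcgf5-/- than in WT cells at day 6.

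Over 6 days in N2B27, WT cells gained 9 of the 10 members and lost part of the tenth, Sox2. All 10 changes passed the threshold, 9 higher, where 34.2% of tested genes were higher, and 1 lower, where 16.2% were lower. Sox5, Sox6 and Sox8 were tested only because their WT day 6 mean exceeded 1 FPKM, the minimum for testing. A higher mean at day 6 than at day 0 in WT was thus fixed in advance for these genes. Without a minimum, 9 of 10 members were called higher, beside 4937 of 19792 genes. The largest rises on the log2(FPKM + 1) scale were those of Sox11 (5.75, SE 0.21), Sox3 (5.43, SE 0.21) and Sox1 (5.14, SE 0.23), with adjusted p of 4.22e-06, 4.22e-06 and 5.83e-06 by limma. Sox4 rose by 4.08, Sox21 by 2.76 and Sox9 by 2.17. The weakly expressed Sox6, Sox5 and Sox8 rose by 1.12, 0.96 and 0.95, values that the added 1 makes smaller than the ratios of FPKM. Sox2 fell by 0.73 (SE 0.11, adjusted p = 0.000754), from a mean of 167 ± 11.1 to 99.9 ± 2.28 FPKM (SD, n = 2).

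At day 6 the WT cells held several SOX genes at like levels in place of Sox2 alone. Means were 99.9 FPKM for Sox2, 91.6 for Sox11, 84.8 for Sox4, 77.7 for Sox3, 59.1 for Sox1 and 31.3 for Sox21. Sox2 exceeded Sox11 in both samples, Sox11 exceeded Sox4 in both although their ranges overlapped, and Sox4 and Sox3 changed places between the samples. Sox9 had 6.95 FPKM, and Sox6, Sox8 and Sox5 had 1.32, 1.18 and 1.01 FPKM.

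In Pcgf5-/- cells 7 of the 10 members were higher at day 6 than at day 0, where 21.9% of tested genes were higher, and 1 was lower, where 10.4% were lower. Sox1 rose by 4.14, Sox11 by 3.99 and Sox3 by 3.68 on the log2(FPKM + 1) scale, each with a limma adjusted p of 6.82e-05. Sox4 rose by 2.14, Sox21 by 2.13, Sox9 by 1.26 and Sox5 by 0.58. Sox2 fell by 0.35 (SE 0.11, adjusted p = 0.0348), a call that was lost without either sample of Pcgf5-/- day 0 or day 6, and with quantile normalization (-0.25, adjusted p = 0.114), without the variance trend (adjusted p = 0.0812), in a fit of the Pcgf5-/- samples alone (adjusted p = 0.0784) or with a replicate block within each day (adjusted p = 0.0539). Sox6 at 0.43 (95% interval 0.01 to 0.84, adjusted p = 0.107) and Sox8 at 0.23 (-0.16 to 0.62, adjusted p = 0.338) did not pass. Leaving out Pcgf5-/- day 0 #1, day 6 #1 or day 6 #2 lowered the number of called members to 4, 5 and 4. The call of Sox5 was lost without any 1 of the 4 Pcgf5-/- samples, that of Sox9 in the 3 fits just named, and that of Sox4 without day 0 #1 or day 6 #2.

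**Figure D2:**
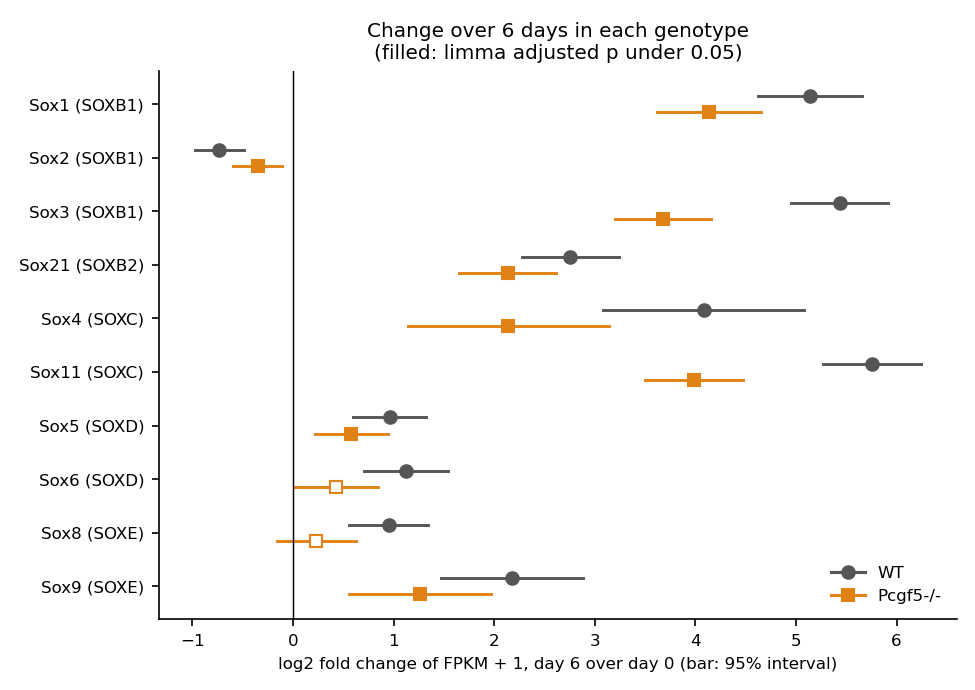
Log2 fold change of FPKM + 1 from day 0 to day 6 for each member in WT (grey circles) and Pcgf5-/- cells (orange squares), with 95% intervals and filled symbols for limma adjusted p under 0.05. Sox1, Sox3 and Sox11 rise most in both genotypes, with lower values in Pcgf5-/- cells, and Sox2 falls in both.

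The rise in mean FPKM in Pcgf5-/- cells, set against the rise in WT, was 42.8% for Sox1, 47.1% for Sox3, 34.2% for Sox21, 47.2% for Sox4 and 40.7% for Sox11. It was 51.9% for Sox5, 28.7% for Sox6, 20.2% for Sox8 and 50.1% for Sox9. For Sox5, Sox6 and Sox8, which passed the FPKM minimum only through WT at day 6, the filter itself favours a low share. Their means were also near the floor, at most 1.32 FPKM in any condition. Whether the genotype effect differed between the days was tested as an interaction, in which 2 of the 10 members passed with a lower value at day 6, against 1.75% of tested genes. These were the SOXB1 gene Sox3, at -1.76 (SE 0.30, adjusted p = 0.0310), and the SOXC gene Sox11, at -1.77 (SE 0.30, adjusted p = 0.0314). For both, the Pcgf5-/- samples lay above the WT samples at day 0 and below them at day 6. The calls of both were lost without WT day 0 #2, Pcgf5-/- day 0 #2, or any single day 6 sample, and that of Sox3 also without WT day 0 #1, while the values in these fits stayed between -1.97 and -1.50. Sox1 at -1.003 (95% interval -1.73 to -0.27, adjusted p = 0.115) and Sox4 at -1.94 (-3.36 to -0.53, adjusted p = 0.115) did not pass.

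Of the SOXB1 genes, Sox1 and Sox3 were lower in Pcgf5-/- than in WT cells at day 6, and Sox2 was not. Sox1 had 50.3 and 67.9 FPKM in WT and 22.7 and 28.3 FPKM in Pcgf5-/- cells, with every Pcgf5-/- sample below every WT sample. The difference was -1.17 on the log2(FPKM + 1) scale (SE 0.23, limma adjusted p = 0.0138). Sox3, which is active in progenitors throughout the neural plate, had 73.3 and 82.1 FPKM in WT and 39.6 and 37.1 FPKM in Pcgf5-/- cells, again without overlap, a difference of -0.999 (SE 0.21, adjusted p = 0.0180). Both calls were lost with a pseudocount of 0.1 (limma adjusted p = 0.0551 for Sox1 and 0.0601 for Sox3). Sox2 had 98.3 and 102 FPKM in WT and 125 and 121 FPKM in Pcgf5-/- cells, both Pcgf5-/- samples lying above both WT samples. Its difference of 0.30 (95% interval 0.05 to 0.54) had an adjusted p of 0.0901 and did not pass, nor did its interaction with day, at 0.38 (0.04 to 0.72, adjusted p = 0.179). The FPKM of Sox2 lay outside the bounds that cufflinks itself gave for it in all 8 samples, and so did that of Sox3 and of Sox4 in both WT samples at day 6, each time above the upper bound.

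The make-up of SOXB1 RNA also lay apart at day 6. Sox2 made up 98.9% to 99.3% of the summed FPKM of the 3 genes in WT and 97.9% to 98.8% in Pcgf5-/- cells at day 0. At day 6 its share was 44.3% and 40.4% in the WT samples and 66.7% and 64.9% in the Pcgf5-/- samples, which did not overlap and differed by 23.5 percentage points in the mean. An exact two-sided permutation test of 2 against 2 samples gave p = 0.333, the smallest value it allows. The summed SOXB1 level was 222 and 252 FPKM in WT and 187 and 186 FPKM in Pcgf5-/- cells.

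**Figure D3:**
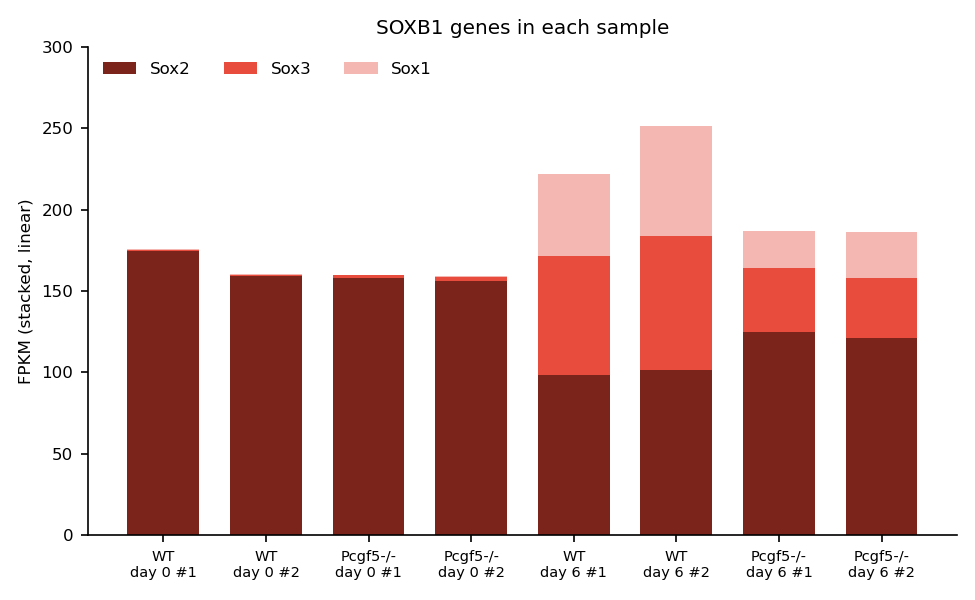
FPKM of Sox2, Sox3 and Sox1 stacked for each of the 8 samples on a linear axis from 0. Nearly the whole bar is Sox2 at day 0. At day 6 Sox1 and Sox3 together make up 55.7% and 59.6% of the bar in WT and 33.3% and 35.1% in Pcgf5-/- cells.

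Outside SOXB1, each of the 7 members had lower values at day 6 when PCGF5 was lacking, and 4 passed. Sox21 had 31.1 and 31.5 FPKM in WT and 11.0 and 11.3 FPKM in Pcgf5-/- cells, with little spread within a genotype and no overlap. Its difference of -1.41 (SE 0.21, adjusted p = 0.00754) had the lowest p of the 10 members. Sox21 already lay lower in Pcgf5-/- than in WT cells at day 0, without overlap, at -0.79 (limma adjusted p = 0.106), which did not pass. Its interaction with day, at -0.62 (SE 0.30, limma adjusted p = 0.254), did not pass either. The ratio of Sox21 to Sox2 in FPKM was 0.317 and 0.310 in the WT samples and 0.0883 and 0.0935 in the Pcgf5-/- samples.

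The SOXC genes were both lower in every Pcgf5-/- sample than in any WT sample. Sox11 had 97.9 and 85.4 FPKM in WT and 35.9 and 41.0 FPKM in Pcgf5-/- cells, a difference of -1.23 (SE 0.21, adjusted p = 0.0104). Sox4 had 89.0 and 80.5 FPKM in WT and 40.9 and 56.4 FPKM in Pcgf5-/- cells, at -0.80 (95% interval -1.81 to 0.20, adjusted p = 0.242), which did not pass. The day 0 samples, over which Sox4 ranged from 2.22 to 14.7 FPKM, share the estimate of its spread, and Sox4 passed in a fit of the day 6 samples alone (adjusted p = 0.0489). The ratio of Sox11 to Sox4 was 1.10 and 1.06 in WT and 0.878 and 0.727 in Pcgf5-/- cells.

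The SOXD genes and the SOXE gene Sox8 stayed low in both genotypes. Sox6 had 1.01 and 1.62 FPKM in WT and 0.449 and 0.369 FPKM in Pcgf5-/- cells at this day, a difference of -0.70 (SE 0.18, adjusted p = 0.0350). Sox8 had 1.25 and 1.11 FPKM in WT and 0.552 and 0.311 FPKM in Pcgf5-/- cells, a difference of -0.61 (SE 0.17, adjusted p = 0.0441). Neither gene overlapped between the genotypes, but both calls were lost in a fit of the day 6 samples alone (adjusted p = 0.0601 for Sox6 and 0.0583 for Sox8) and with a pseudocount of 0.1 (adjusted p = 0.0767 and 0.0917). Sox5 had 1.04 and 0.983 FPKM in WT and 0.477 and 0.582 FPKM in Pcgf5-/- cells, at -0.40 (95% interval -0.76 to -0.03, adjusted p = 0.123). Sox5, Sox6 and Sox8 exceeded a mean of 1 FPKM, the minimum for testing, in WT at day 6 alone. Without that minimum their adjusted p were 0.0242, 0.0312 and 0.0273.

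Sox9, which marks progenitors that gain glial competence, had 6.54 and 7.37 FPKM in WT and 3.97 and 4.90 FPKM in Pcgf5-/- cells, at -0.55 (95% interval -1.26 to 0.15, adjusted p = 0.254). Its samples did not overlap. Sox5 and Sox9 lie on chromosomes 6 and 11, whose tested genes had a median difference between the genotypes of 0.37 and 0.38 on the log2 scale at day 6, while the other chromosomes lay between -0.06 and 0.03. At day 0 these medians were already 0.41 and 0.48, with the other chromosomes between 0.04 and 0.12. Of the tested genes on chromosomes 6 and 11, 25.5% and 25.1% were called higher at day 6. The cause of this shift was not tested. With the median of each chromosome removed, Sox5 stood at -0.76 (adjusted p = 0.0193) and Sox9 at -0.93 (adjusted p = 0.0817).

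In all, 6 of 10 members were lower and 0 were higher in Pcgf5-/- cells at day 6, where 7.05% of tested genes were lower and 9.57% higher. By group these were 2 of 3 SOXB1 genes, with a median log2 difference of -0.999, and 4 of 7 others, with a median of -0.70, beside a median of 0.02 over all tested genes. Both Pcgf5-/- samples lay below both WT samples for 9 members, and for 28.8% of all tested genes. In these counts Sox5, Sox6 and Sox8 passed the FPKM minimum only through WT at day 6, which favours a lower value in Pcgf5-/- cells. Without a minimum, 7 of 10 members were called lower, beside 804 of 19792 genes. With 1 library left out, the number of called members was 3 without WT day 6 #1 (Sox1, Sox21 and Sox6), 1 without WT day 6 #2 (Sox21), 0 without Pcgf5-/- day 6 #1 and 3 without Pcgf5-/- day 6 #2 (Sox1, Sox21 and Sox11). The sign of all 10 differences stayed the same in these fits. A pseudocount of 0.1 also lowered the count, to 2 (Sox21 and Sox11).

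**Figure D4:**
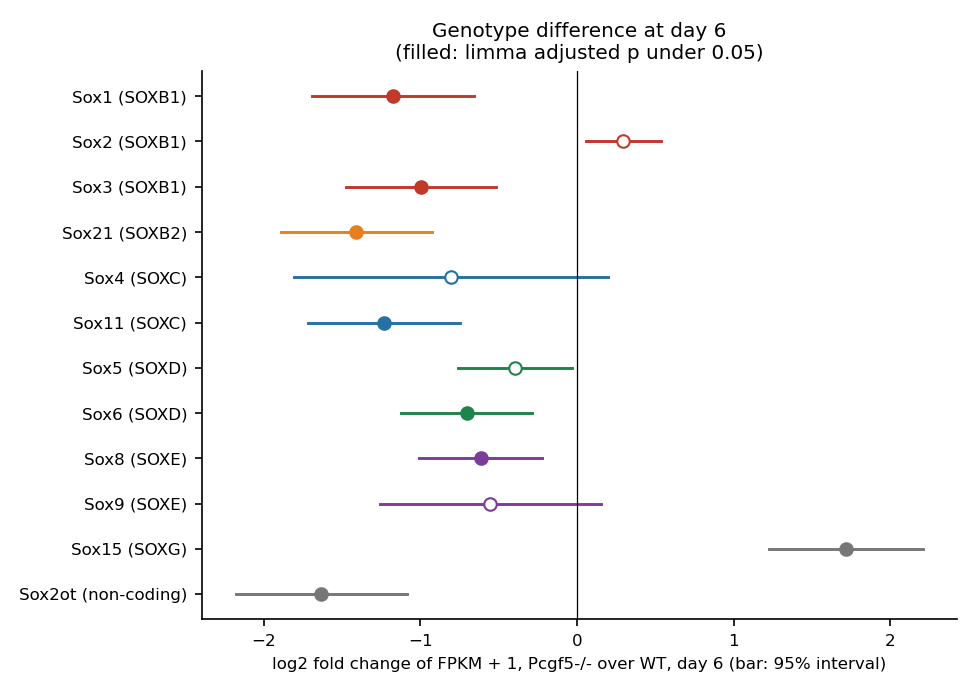
Log2 fold change of FPKM + 1 between Pcgf5-/- and WT cells at day 6 for the 10 members, Sox15 and the non-coding Sox2ot, with 95% intervals and filled symbols for limma adjusted p under 0.05. Sox2 at 0.30 and Sox15 at 1.71 lie to the right of 0 and all the others to the left.

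Of 10 further SOX genes 4 were tested (Sox12, Sox13, Sox15 and Sox17), and 1 of them passed at day 6. This was Sox15, the SOXG gene of mESCs, which can bind OCT4-SOX2 elements, with 2.27 and 2.48 FPKM in WT and 8.88 and 11.4 FPKM in Pcgf5-/- cells. The difference was 1.71 (SE 0.21, adjusted p = 0.00455), and the interaction with day was 1.60 (SE 0.30, adjusted p = 0.0384), where 1.34% of tested genes passed with a higher value. Sox15 lies on chromosome 11, like Sox9, and stood at 1.33 (adjusted p = 0.0104) with chromosome medians removed. The day 6 call held without any 1 day 6 sample (1.55 to 1.88), whereas the interaction held without 1 of the 8 samples, Pcgf5-/- day 0 #1, and was lost without each of the other 7 (adjusted p up to 0.129). Sox12, the third SOXC gene, had 23.9 and 32.9 FPKM in WT and 23.1 and 23.9 FPKM in Pcgf5-/- cells, at -0.24 (95% interval -0.70 to 0.21, adjusted p = 0.437). Sox13, the third SOXD gene, stood at -0.39 (-1.23 to 0.46, adjusted p = 0.510). Sox17, an endoderm gene, had 2.48 FPKM in WT day 6 #1, the sample with the most primitive endoderm RNA, and at most 0.465 FPKM in every other sample.

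Sox2ot, the non-coding RNA gene around Sox2, did not follow Sox2. It had 8.40 and 12.4 FPKM in WT and 2.25 and 3.02 FPKM in Pcgf5-/- cells on day 6, without overlap, a difference of -1.63 (SE 0.24, adjusted p = 0.00727). From day 0 to day 6 it rose by 2.67 in WT and 1.33 in Pcgf5-/- cells, while Sox2 fell in both. The day 6 call was lost without Pcgf5-/- day 6 #1 (-1.48, adjusted p = 0.0541). Sox5os3, a non-coding row named after Sox5 that lies outside the Sox5 locus, was listed at 0 in all 8 samples.

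Partner genes of the SOX proteins shifted with genotype at day 6. Of 6 POU and PAX genes, 4 were lower and 1 was higher in Pcgf5-/- cells, where 7.05% of tested genes were lower and 9.57% higher. Pou5f1, which encodes OCT4, the partner of SOX2 in mESCs, had 93.8 and 36.2 FPKM in WT and 254 and 228 FPKM in Pcgf5-/- cells (2.03, SE 0.35, adjusted p = 0.0107). The 2 WT samples thus differed more than 2-fold from each other and still lay below both Pcgf5-/- samples. Among the neural partners, Pou3f2 (BRN2) had 29.1 and 21.9 FPKM in WT and 5.65 and 4.87 FPKM in Pcgf5-/- cells (-2.07, SE 0.20, adjusted p = 0.00361). Pou3f3 stood at -2.17 (adjusted p = 0.00377), Pou3f4 at -0.99 (adjusted p = 0.0253) and Pax6 at -1.15 (adjusted p = 0.0114). Pou3f1, also a class III POU gene, had 11.1 and 7.89 FPKM in WT and 28.3 and 12.2 FPKM in Pcgf5-/- cells, at 0.92 (SE 0.40, adjusted p = 0.153). Without Pcgf5-/- day 6 #1 the calls of this list were 2 lower and 0 higher, with Pou5f1 at 1.95 (adjusted p = 0.0698), and 2 were lower without WT day 6 #2.

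Genes with well-known OCT4-SOX2 elements were higher in Pcgf5-/- cells at day 6 for 8 of 8 (Fgf4, Utf1, Pou5f1, Nanog, Fbxo15, Lefty1, Zscan10 and Zfp42), with a median of 2.09 on the log2 scale. Their summed level was 296 and 126 FPKM in WT and 935 and 788 FPKM in Pcgf5-/- cells. Utf1, a chromatin gene of mESCs, had 43.8 and 21.9 FPKM in WT and 154 and 139 FPKM in Pcgf5-/- cells (2.20, SE 0.27, adjusted p = 0.00421). Higher levels were not particular to this list. Naive pluripotency genes, which also include Fgf4, Nanog and Zfp42, were higher for 9 of 10, with a median of 2.03. Of 12 neural progenitor genes, which overlap the partners in Pax6 and Pou3f2, 11 were lower, with a median of -1.27. Of 9 neuron genes tested 5 were lower, and of 8 glial genes tested 1, Aldh1l1, was higher. Over all tested genes 7.05% were lower and 9.57% were higher, and the glial count is near the latter share. With 1 day 6 sample left out, Pcgf5-/- day 6 #1 mattered most, leaving 2 of the 8 OCT4-SOX2 genes and 3 of the 12 progenitor genes called, and no fit called fewer. The progenitor genes called were 6 without WT day 6 #2 and 7 without Pcgf5-/- day 6 #2, the neuron genes 2 without any 1 of the samples other than WT day 6 #2, and Aldh1l1 was not called without WT day 6 #2 or either Pcgf5-/- sample, with chromosome medians removed or without the FPKM minimum. Without that minimum 5 of the 8 OCT4-SOX2 genes and 7 of the 10 naive pluripotency genes were called. The glial genes Gfap, S100b and Olig1 had at most 0.542 FPKM at day 6. Of the neural crest genes, Pax3 and Ednrb were lower and Erbb3 was higher, a call that was lost without any 1 day 6 sample, without the FPKM minimum and in a fit of the day 6 samples alone.

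**Figure D5:**
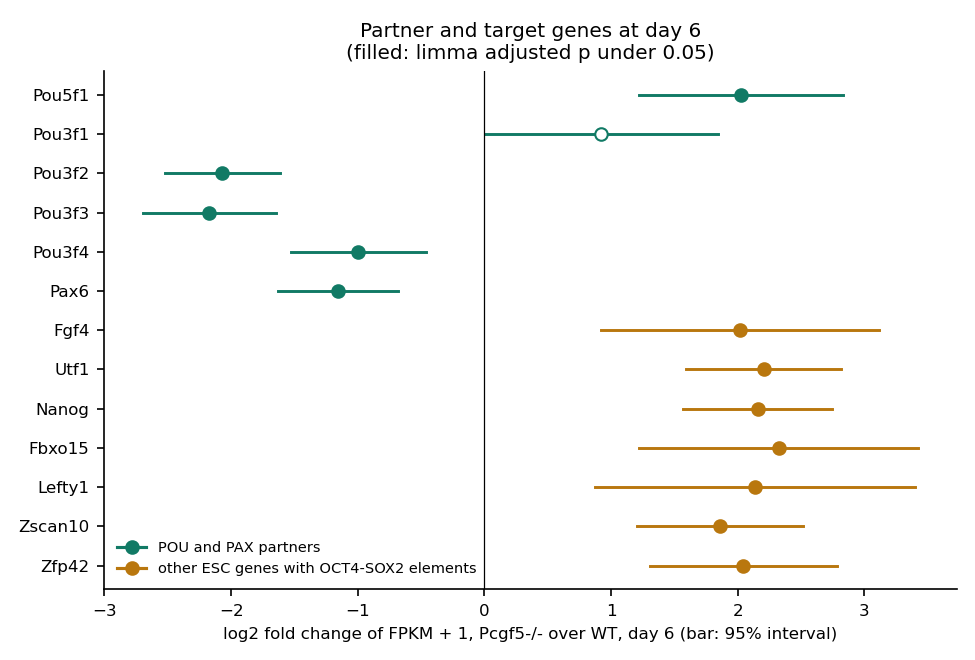
Log2 fold change of FPKM + 1 between Pcgf5-/- and WT cells at day 6 for POU and PAX partner genes (green) and other genes with OCT4-SOX2 elements (brown), with 95% intervals and filled symbols for limma adjusted p under 0.05. Pou5f1 and all brown genes lie near 2, and Pou3f2, Pou3f3, Pou3f4 and Pax6 lie below 0.

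The genes most like each member were those with the smallest root mean square difference between centred log2 profiles over the 8 samples, which describes likeness in these samples only. For Sox1 they were Hoxa2 (0.22), Fndc3c1 (0.23) and Meis1 (0.28), against a median of 2.30 over all tested genes. Meis1 (0.24), Sfrp2 (0.25) and Ly6h (0.27) came closest to Sox3, and Crabp1 (0.17), Ly6h (0.27) and Cntfr (0.31) to Sox11. The profile of Sox2 was near those of Pkm (0.06), Iars (0.07) and Mcm3 (0.07), genes of glycolysis, tRNA charging and DNA replication, against a median of 0.49. Sox21 was nearest to Fzd7 (0.26), Skida1 (0.29) and Zfp811 (0.30), and Sox4 to Dbn1 (0.34), Pxdn (0.36) and Adgrl2 (0.38). The neighbours of Sox9 were Farp1 (0.11), Bcl2l11 (0.11) and Gnb5 (0.12). For the SOXD and SOXE genes with under 2 FPKM, distances are small for any weakly expressed gene, and the nearest were Fam84a (0.06), Brd3 (0.07) and Slc8a1 (0.07) for Sox5, Scg2 (0.03), Lrrc36 (0.06) and 4930429F24Rik (0.08) for Sox6, and Gpld1 (0.06), Hs2st1 (0.08) and AW011738 (0.08) for Sox8.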

How the data were processed

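RNA-seq tables of 8 samples were used. The authors trimmed adapters and low-quality bases, removed short, identical and N-rich reads and aligned the read pairs to mm9 with TopHat2 (2.0.4 in the submitters' processing notes). The authors computed FPKM values per gene with Cufflinks (2.1.1), and the deposited tables give FPKM with its lower and upper bounds. The annotation and the handling of strand are not given in the sources used here. FPKM values are scaled for library size and length, and removing identical reads can lower abundant transcripts. The number of fragments behind a value is not in these tables, so no counting intervals were computed, and 2 samples per condition limit precision.

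Groups followed the sample labels, and p-values rest on the spread between samples within the 4 conditions, moderated by a trend over genes. The labels do not say whether #1 and #2 come from different colonies. An effect of the clone therefore cannot be told apart from that of the genotype. Tests used log2(FPKM + 1) of 13214 genes, those whose mean exceeded 1 FPKM in at least 1 condition. All 8 samples entered one limma fit (3.58.1, R 4.3.3) with a mean per condition, a variance trend and no block, and p-values were two-sided with Benjamini-Hochberg adjustment and a threshold of 0.05. The fit was also run on simulated data with known changes and noise drawn independently for each sample. Such data lack the correlation of the differences between #1 and #2 seen between the genotypes at day 6 (r = 0.39). Comparisons of days and of genotypes share samples. Named genes were the 10 members, listed SOX, partner and target genes past the threshold, non-coding rows named after members, Pcgf5, and the 3 nearest profiles of each member with a locus of at least 300 bp. The members and lists were chosen with earlier results of these data known, and genes named without passing the threshold (Sox12, Sox13, Sox17, Pou3f1 and the low glial genes) were chosen after their values were seen. The count over the neural crest list is not reported here. Upstream windows came from RefSeq and gene models from GENCODE (NCBIM37). Python 3.11.15, pandas 2.3.3, scipy 1.17.1 and matplotlib 3.10.9 were used. Alternatives were a pseudocount of 0.1, no FPKM minimum or one of 5, quantile normalization, a fit of the compared groups, no trend, replicate blocks, removal of chromosome medians and leaving out each sample.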

Additional observations from a re-analysis of the deposited data

Results flagged for a closer look

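The genotype effect differed between the days, by a test of the interaction, for 3 SOX genes. Sox3 stood at -1.76 (limma adjusted p = 0.0310) and Sox11 at -1.77 (limma adjusted p = 0.0314), and Sox15 stood at 1.60 (limma adjusted p = 0.0384) on the log2(FPKM + 1) scale. Sox3 and Sox11 lay above WT in both Pcgf5-/- samples at day 0 and below WT in both at day 6. Sox15 overlapped between the genotypes at day 0 and was higher in both Pcgf5-/- samples at day 6. The calls depend on single samples: that of Sox3 was lost without each sample but Pcgf5-/- day 0 #1, that of Sox11 without each but Pcgf5-/- day 0 #1 and WT day 0 #1, and that of Sox15 without each but Pcgf5-/- day 0 #1, with no change of sign.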

How the results depend on the processing

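Over 726 values of single genes under an alternative, 643 kept their direction and their side of the threshold, 71 kept the direction and lost the call, and 4 kept it and gained one. The other 8, from 5 comparisons without a call (Sox1, Sox5, Sox6 and Sox9 at day 0 and Sox8 between the days in Pcgf5-/- cells), changed sign without a call in either fit. At day 0 the 44 genes called over all tested genes became 6 without the FPKM minimum, 102 with a minimum of 5, 3 with quantile normalization, 0 in a fit of the day 0 samples, 2 without the trend, 2 with chromosome medians removed and 3 to 22 with 1 sample left out, while 0 members were called in each. At day 6 the called members fell from 6 to 2 with a pseudocount of 0.1 and to between 0 and 3 with 1 sample left out, and all called genes from 2197 to between 297 and 1173. From day 0 to day 6 in Pcgf5-/- cells, leaving out 1 sample gave 2367 to 3080 called genes in place of 4271, and 4 to 6 members in place of 8. For the interaction of genotype and day, the 408 genes and 2 members called became 251 and 1 with a pseudocount of 0.1, 86 and 0 without the FPKM minimum, and 4 to 347 and 0 to 2 with 1 sample left out. A fit that leaves 1 sample in a condition assumes that it varies like the others. The cause of these changes was not tested. A fit with fewer samples also has fewer degrees of freedom.

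The replicate numbers in the labels are not stated to mark shared cultures. The differences between #1 and #2 correlated over genes at r = 0.39 between the genotypes at day 6, 0.10 at day 0 and -0.08 to -0.02 between days. With the number as a replicate block, 1 gene was called at day 0 and 5 members at day 6, Sox8 being lost. With a replicate block within each day, 282 genes were called at day 0, 1167 for the interaction, and 4 members, in place of 8, between the days in Pcgf5-/- cells. The depth behind each value is unknown, and 2 samples per condition limit all comparisons.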
